A study of Mus musculus with 4 samples.

Results

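The interferon-response genes are a list of 35 mouse genes that interferons are known to induce, read here in liver RNA. The list holds 24 targets of type I interferon and 11 genes better known as targets of gamma-interferon. A member was found by matching the accession of each array probe to a RefSeq gene table, with older symbols accepted. That gave a named probe for 34 of the 35 members among 20886 named genes. Mx2 had no matched probe and has no value. Of the 34, 33 were well above background on all 4 arrays by the scanner's own flag, and Oas3 was so on 1 array only.

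The study crossed catalase genotype with diet in male mice and measured liver RNA on 1-colour Agilent 44K arrays. The groups were catalase knockout on a high-fat diet (HFD, 60.3% of calories from fat), wild type on HFD, catalase knockout on a normal diet (ND, 18% of calories from fat) and wild type on ND. Both diets ran for 11 weeks, from 29 to 40 weeks of age. Each group had 1 array, and whether that was 1 animal or a pool is not in the labels. Neither do they say which part of the catalase gene was deleted, or whether the deletion is limited to the liver. No difference between 2 arrays therefore has a replicate check or a p-value. Values after ± come from the error model of the scanner software, propagated to the difference, and hold spot error alone, with no animal-to-animal spread.

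Interferons are secreted proteins that cells release on meeting viruses, bacteria or misplaced nucleic acid. Type I interferons act through a receptor that sends a complex holding STAT2 and IRF9 to the nucleus, where it switches on genes that carry an interferon-stimulated response element (ISRE) in their promoters. Gamma-interferon comes mainly from T and NK cells and acts at gamma-activated sites (GAS), and its targets include antigen-processing genes and the GTPases that attack intracellular microbes. In the liver both hepatocytes and resident macrophages, the Kupffer cells, can respond.

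Signals are given in units that set each array's 75th percentile to 1000, so they compare arrays for 1 probe and not genes with each other. The arrays held 23760 to 25185 probes well above background of 39429, and no spot was saturated. Cat itself read 1928 units in knockout on HFD, 26999 in wild type on HFD, 2196 in knockout on ND and 29714 in wild type on ND. It was thus 14.0-fold lower in knockout on HFD and 13.5-fold lower in knockout on ND, as the labels say, although where the probe lies relative to the deletion is not given. All 12 hepatocyte markers on the list used here were well above background on all 4 arrays.

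Across the list, signals were mostly higher on the HFD arrays, in both genotypes. Of the 33 members measured on every array, the highest signal was on the knockout HFD array for 15, on the wild-type HFD array for 14, on the knockout ND array for 0 and on the wild-type ND array for 4. Among 13551 genes measured on every array those shares were 23.6%, 18.9%, 26.3% and 31.2% in the same order. The lowest signal of a member fell on the knockout ND array for 26 of 33, against 19.8% of all genes. It fell on the knockout HFD array for 2 members, against 40.0% of all genes, on the wild-type HFD array for 1, against 18.1%, and on the wild-type ND array for 4, against 22.2%. A difference above 0 in both diet comparisons was seen for 25 members, 17 of 22 type I targets and 8 of 11 gamma-interferon targets, against 24.0% of all genes. With arrays scaled to their median, 29 of 33 members were above 0 in knockout and 32 of 33 in wild type, where the median of all genes came to -0.17 and 0.07.

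**Figure D1:**
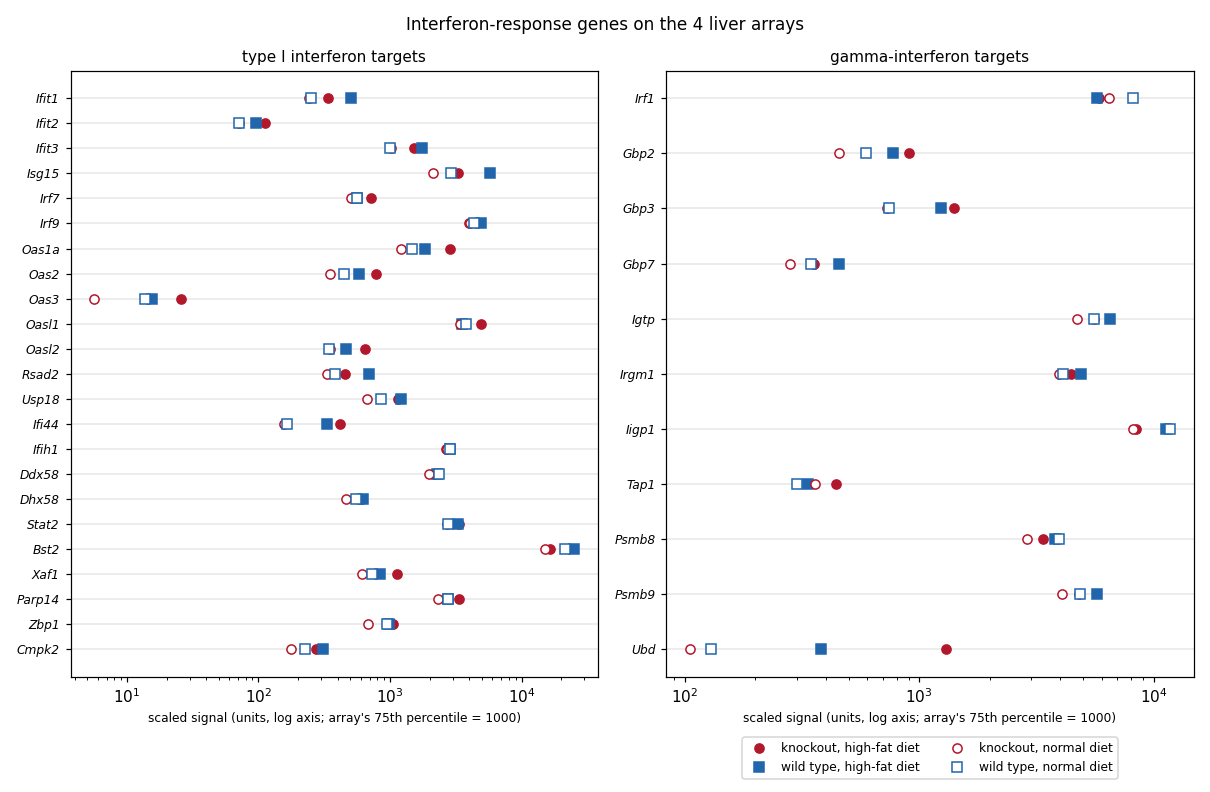
Scaled signal (units, log axis) of the 34 members with a probe on the 4 arrays, 1 point per array, with the HFD arrays filled and the ND arrays open. Ubd spans the widest range, with 1304 units on the knockout HFD array and 105 on the knockout ND array, while Ifih1 lies between 2653 and 2878 on all 4; Oas3 was well above background on the knockout HFD array only.

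In knockout livers, HFD against ND, 5 members rose by 2-fold or more and 0 fell. These were Ubd, Ifi44, Oas1a, Oas2 and Gbp2, and they make up 14.7% of the 34 members that could be compared. Over all genes 4.22% rose and 1.64% fell. The median over the 22 type I targets measured on both arrays was a log2 difference of 0.56, over the 11 gamma-interferon targets 0.25, and over all genes -0.07. A difference above 0 was seen for 30 of 33 members, against 39.9% of all genes, and one above the median of all genes for 32. Counting differences of more than 2 scanner errors, 21 of 33 members were higher and 0 lower, against 11.3% and 9.63% of all genes. Of the 21, 16 were type I targets and 5 gamma-interferon targets. On the same 2 arrays 9 of 14 macrophage markers rose, and their part in the member differences was not tested.

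In wild-type livers, HFD against ND, 3 members rose by 2-fold or more and 0 fell. These were Ubd, Ifit1 and Ifi44, or 9.09% of 33 members, against 1.78% of all genes that rose and 2.31% that fell. The median log2 difference was 0.29 for type I targets, 0.24 for gamma-interferon targets and -0.02 for all genes. A difference above 0 was seen for 27 of 33 members, against 45.7% of all genes, and one above the median of all genes for 28. More than 2 scanner errors separated the arrays upward for 12 members and downward for 1, against 6.39% and 8.27% of all genes. The 1 was Irf1, read from its brighter probe. Of the 12, 8 were type I targets and 4 gamma-interferon targets.

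The 2-fold line passes through a close group of members. Just inside it were Gbp2 in knockout, at 1.00 on the log2 scale, and Ifit1 and Ifi44 in wild type, both at 1.01. Just outside it were Isg15 in wild type at 0.99 and Gbp3 in knockout at 0.95. A typical scanner error of 0.20 is wider than the gap between them, so these 5 calls are not separated by the measurement.

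**Figure D2:**
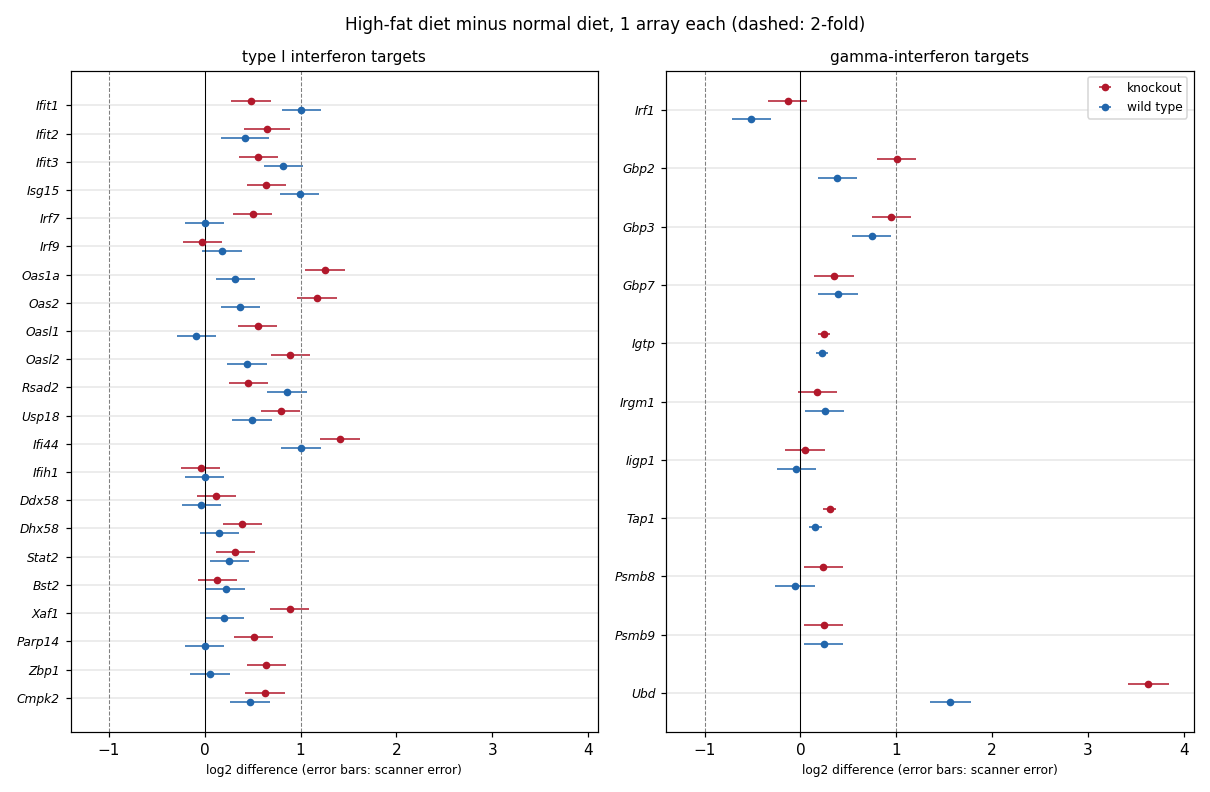
Log2 difference of HFD minus ND for each member measured on both arrays, knockout in red and wild type in blue, with scanner error bars and dashed lines at 2-fold. Most points lie right of 0 in both genotypes (30 of 33 in knockout and 27 of 33 in wild type), and Ubd lies farthest out at 3.63 in knockout and 1.56 in wild type.

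Ubd encodes FAT10, a ubiquitin-like protein that tags proteins for the proteasome and is induced jointly by gamma-interferon and tumour necrosis factor. It read 1304 units in knockout on HFD, 381 in wild type on HFD, 105 in knockout on ND and 129 in wild type on ND. Both HFD arrays stood above both ND arrays, an order that was not counted over all genes. The knockout HFD array stood far above the wild-type HFD array. With HFD, Ubd rose by 3.63 ± 0.22 on the log2 scale in knockout, a 12.4-fold difference, and by 1.56 ± 0.21 in wild type, a 2.95-fold difference. It was the only member to differ by 2-fold or more between genotypes, and rose by 1.78 ± 0.21 in knockout against wild type on HFD. On ND the difference between knockout and wild type was -0.29 ± 0.23.

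Ifi44, an interferon-induced cytoplasmic protein with antiviral activity, rose with HFD in both genotypes. It read 414 units in knockout on HFD, 332 in wild type on HFD, 155 in knockout on ND and 165 in wild type on ND. The 2 HFD arrays, 1 of each genotype, both stood above the 2 ND arrays. That order was not counted over all genes. The log2 difference with HFD was 1.41 ± 0.21 in knockout and 1.01 ± 0.21 in wild type.

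The oligoadenylate synthetases make short adenylate chains that switch on RNase L, which degrades viral and cellular RNA. Oas1a, an active member of the family, read 2875 units in knockout on HFD, 1836 in wild type on HFD, 1205 in knockout on ND and 1470 in wild type on ND. Oas2 read 781 units in knockout on HFD, 576 in wild type on HFD, 347 in knockout on ND and 445 in wild type on ND. For both genes the arrays stood in the same order, with knockout HFD highest and knockout ND lowest. With HFD in knockout, Oas1a rose by 1.26 ± 0.20 and Oas2 by 1.17 ± 0.21 on the log2 scale. In wild type the same differences were 0.32 ± 0.20 for Oas1a and 0.37 ± 0.21 for Oas2, below 2-fold.

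The related Oasl1 and Oasl2, oligoadenylate synthetase-like proteins, did not reach 2-fold. With HFD Oasl1 had log2 differences of 0.55 ± 0.20 in knockout and -0.09 ± 0.20 in wild type, and Oasl2 of 0.89 ± 0.21 and 0.44 ± 0.21 in the same order. Oas3, the largest synthetase, read 25.8 units in knockout on HFD and was not well above background on the other 3 arrays. It was at least 1.14-fold higher in knockout on HFD than on ND and at least 1.09-fold higher than in wild type on HFD, which is no call. Oas1a, Oas2, Oas3, Oasl1 and Oasl2 all lie on chromosome 5. A second probe for Oas1a gave 1.11 in knockout and 0.38 in wild type for the same diet differences.

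The Ifit proteins bind foreign RNA ends and block translation. Ifit1 read 339 units in knockout on HFD, 505 in wild type on HFD, 242 in knockout on ND and 251 in wild type on ND. The wild-type HFD array was the highest, the knockout HFD array came next, and the 2 ND arrays were close together. Ifit1 rose with HFD by 1.01 ± 0.21 in wild type, and its log2 difference in knockout was 0.48 ± 0.21. Its neighbours on chromosome 19 had differences in knockout and in wild type of 0.65 ± 0.24 and 0.42 ± 0.25 for Ifit2, and of 0.56 ± 0.20 and 0.82 ± 0.20 for Ifit3.

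Other antiviral effectors were chosen for mention after their values were seen, since they missed the 2-fold rule. Isg15, a ubiquitin-like modifier joined to proteins after interferon, read 3300 units in knockout on HFD, 5779 in wild type on HFD, 2115 in knockout on ND and 2911 in wild type on ND. The wild-type array was the higher on each diet and the HFD array the higher in each genotype. Its diet difference was 0.64 ± 0.20 in knockout and 0.99 ± 0.20 in wild type, and a second Isg15 probe gave 0.54 and 1.09. Usp18, the protease that removes ISG15 and dampens receptor signalling, had 0.79 ± 0.20 in knockout and 0.49 ± 0.20 in wild type. Rsad2, which encodes viperin, an enzyme whose product stops viral RNA chains, had 0.45 ± 0.21 and 0.86 ± 0.20 in that order. Its neighbour on chromosome 12, the nucleotide kinase gene Cmpk2, had 0.63 ± 0.21 and 0.47 ± 0.21.

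Of the remaining effectors, Bst2, the tether that holds budding virus at the cell surface, had 0.13 ± 0.20 in knockout and 0.22 ± 0.20 in wild type. Xaf1, linked to cell death, had 0.88 ± 0.20 and 0.20 ± 0.20, and the ADP-ribosyltransferase gene Parp14 had 0.51 ± 0.20 and 0.00 ± 0.20 in the same order. Among the nucleic acid sensors, Zbp1 had 0.64 ± 0.20 in knockout and 0.06 ± 0.20 in wild type. Ifih1, Ddx58 and Dhx58, the RNA sensors MDA5, RIG-I and LGP2, had -0.04, 0.12 and 0.39 in knockout and 0.00, -0.04 and 0.15 in wild type. Among the transcription factors, Irf7, the amplifier of type I interferon production, had 0.50 ± 0.21 in knockout and 0.00 ± 0.21 in wild type. Stat2 had 0.32 ± 0.20 and 0.26 ± 0.20, and its partner Irf9 had -0.03 ± 0.20 and 0.18 ± 0.20. By the probes used, the sensors MDA5 and RIG-I and the factor Irf9 thus stayed within 1 scanner error of 0 in both genotypes. Over the 4 comparisons, a second probe had the same sign in 3 for Ifih1, 1 for Ddx58 and 3 for Zbp1. The largest gaps between probes were 0.30, 0.35 and 0.36 in that order, wider than the scanner error.

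Among the gamma-interferon targets, each guanylate-binding protein gene had a larger diet difference than each immunity-related GTPase or antigen-processing gene, in both genotypes. The closest pairs were not separated by the scanner error. In knockout these were Gbp7 at 0.35 ± 0.21 and Tap1 at 0.30 ± 0.07. In wild type they were Gbp2 at 0.38 ± 0.20 and Irgm1 at 0.25 ± 0.20. A second Irgm1 probe differed from the first by up to 0.21 over the 4 comparisons. Gbp2, a GTPase that coats intracellular microbes, read 907 units in knockout on HFD, 776 in wild type on HFD, 453 in knockout on ND and 594 in wild type on ND. Both HFD arrays were above both ND arrays, an order that was not counted over all genes, and the knockout ND array was the lowest. Gbp2 rose by 1.00 ± 0.20 in knockout, and its log2 difference in wild type was 0.38 ± 0.20. Gbp3 had 0.95 ± 0.20 in knockout and 0.74 ± 0.20 in wild type, and Gbp7 had 0.35 ± 0.21 and 0.39 ± 0.21. These 3 genes lie together on chromosome 3, and Ifi44 is on that chromosome too.

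The immunity-related GTPases Igtp, Irgm1 and Iigp1 had diet differences of 0.25, 0.18 and 0.05 in knockout and 0.22, 0.25 and -0.04 in wild type. The peptide transporter gene Tap1 and the immunoproteasome genes Psmb8 and Psmb9, neighbours on chromosome 17, had 0.30, 0.24 and 0.24 in knockout and 0.16, -0.06 and 0.24 in wild type. By its brighter probe, Irf1, the transcription factor that gamma-interferon induces directly, was the member with the lowest diet difference in both genotypes. The values were -0.13 ± 0.20 in knockout and -0.51 ± 0.20 in wild type. That probe read 5867 units in knockout on HFD, 5721 in wild type on HFD, 6433 in knockout on ND and 8152 in wild type on ND. The wild-type ND array thus stood alone at the top. The mean of all Irf1 probes gave 1.01 in wild type. The other probe was well above background on the wild-type HFD array only.

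Promoter sequence was available for 28 of the 34 members, credited to RefSeq on build GRCm38.p6, from 250 bases before to 50 bases after each start site. The table had none for Dhx58, Iigp1, Oas2, Parp14, Usp18 and Zbp1. The core of the ISRE was searched as GAAA, any 2 bases and GAAA again, and the GAS as TTCNNNGAA, on both strands. An ISRE core was present for 15 of 28 members (53.6%), against 3.99% of 27025 genes in the table. A GAS was present for 7 of 28 (25.0%), against 9.55% of genes. Type I targets held an ISRE core in 10 of 18 and a GAS in 3 of 18, and gamma-interferon targets held an ISRE core in 5 of 10 and a GAS in 4 of 10. The members were listed as known interferon targets, so the higher share describes the list and is no result of the arrays.

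The 5 windows printed next, each of 90 bases read 5′ to 3′ on the gene's strand, belong to members with values given above and show how the elements sit near the start site. Capitals mark the match, an ISRE core on either strand in the first 4 and a GAS in Irf1, and adjoining capitals are matches that overlap. They are Oas1a (chr5:120907526-120907615, minus strand), Isg15 (chr4:156200841-156200930, minus strand), Ifit1 (chr19:34640754-34640843, plus strand), Gbp2 (chr3:142620564-142620653, plus strand) and Irf1 (chr11:53769883-53769972, plus strand).
Oas1a: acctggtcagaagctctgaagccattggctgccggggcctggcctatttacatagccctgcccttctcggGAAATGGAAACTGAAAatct
Isg15: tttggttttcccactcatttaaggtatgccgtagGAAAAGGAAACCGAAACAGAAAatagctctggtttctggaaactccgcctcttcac
Ifit1: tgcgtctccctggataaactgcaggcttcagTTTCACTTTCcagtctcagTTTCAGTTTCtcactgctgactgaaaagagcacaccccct
Gbp2: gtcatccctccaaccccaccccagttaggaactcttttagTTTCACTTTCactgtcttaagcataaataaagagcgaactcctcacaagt
Irf1: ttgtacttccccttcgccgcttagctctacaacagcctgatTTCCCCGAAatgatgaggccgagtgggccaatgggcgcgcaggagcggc

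Isg15 holds 3 overlapping ISRE cores, Oas1a 2 overlapping ones and Ifit1 2 separate ones, whereas Gbp2 holds 1. Over the 28 members there were 23 ISRE matches and 8 GAS matches, and in 1 case, Bst2, an ISRE match overlapped a GAS match. Neither motif was found in the windows of Ubd and Ifi44, the 2 members that rose with HFD in both genotypes, which says only that these letters are not in these windows.

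**Figure D3:**
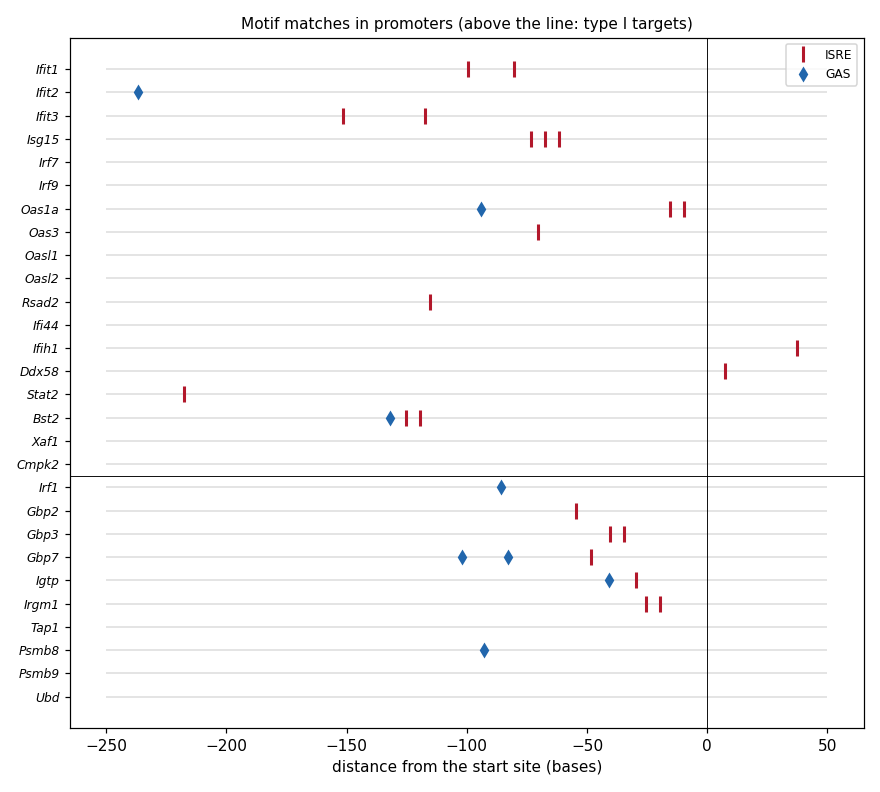
Position of each motif match relative to the start site (bases, 0 at the start) in the 28 members with a promoter, with ISRE cores as red bars, GAS as blue diamonds and the type I targets above the dividing line. Isg15 carries 3 ISRE cores and Ubd and Ifi44 carry no match; members with more than 1 annotated start site share 1 line.

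Between knockout and wild type on HFD, the members lay on both sides of 0. Ubd was the 1 member of 34 to rise by 2-fold or more (2.94%), and 0 fell, against 2.51% of all genes that rose and 1.59% that fell. That share is near the background. More than 2 scanner errors separated the arrays upward for 7 of 33 members and downward for 6, against 9.58% and 7.78% of all genes. A value above 0 was seen for 16 of 33 members, against 43.1% of all genes. The median log2 difference was 0.01 for type I targets, -0.14 for gamma-interferon targets and -0.04 for all genes. On the same 2 arrays 4 of 14 macrophage markers rose.

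The oligoadenylate synthetase family lay on the higher side among the members. The 4 measured members of the family, Oas1a, Oas2 and the synthetase-like Oasl1 and Oasl2, were all higher in knockout on HFD. Their log2 differences were 0.65 ± 0.20 for Oas1a, 0.44 ± 0.20 for Oas2, 0.48 ± 0.20 for Oasl1 and 0.48 ± 0.21 for Oasl2. Lower in knockout were Isg15 at -0.81 ± 0.20, Rsad2 at -0.61 ± 0.20, Bst2 at -0.60 ± 0.20 and Ifit1 at -0.57 ± 0.21. The second Isg15 probe gave -0.92 and the second Oas1a probe 0.44. Bst2 read 16492 units in knockout on HFD, 24967 in wild type on HFD, 15067 in knockout on ND and 21479 in wild type on ND. Both knockout arrays were thus below both wild-type arrays, an order that was not counted over all genes. None of these genes reached 2-fold between genotypes, and each genotype is 1 array.

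**Figure D4:**
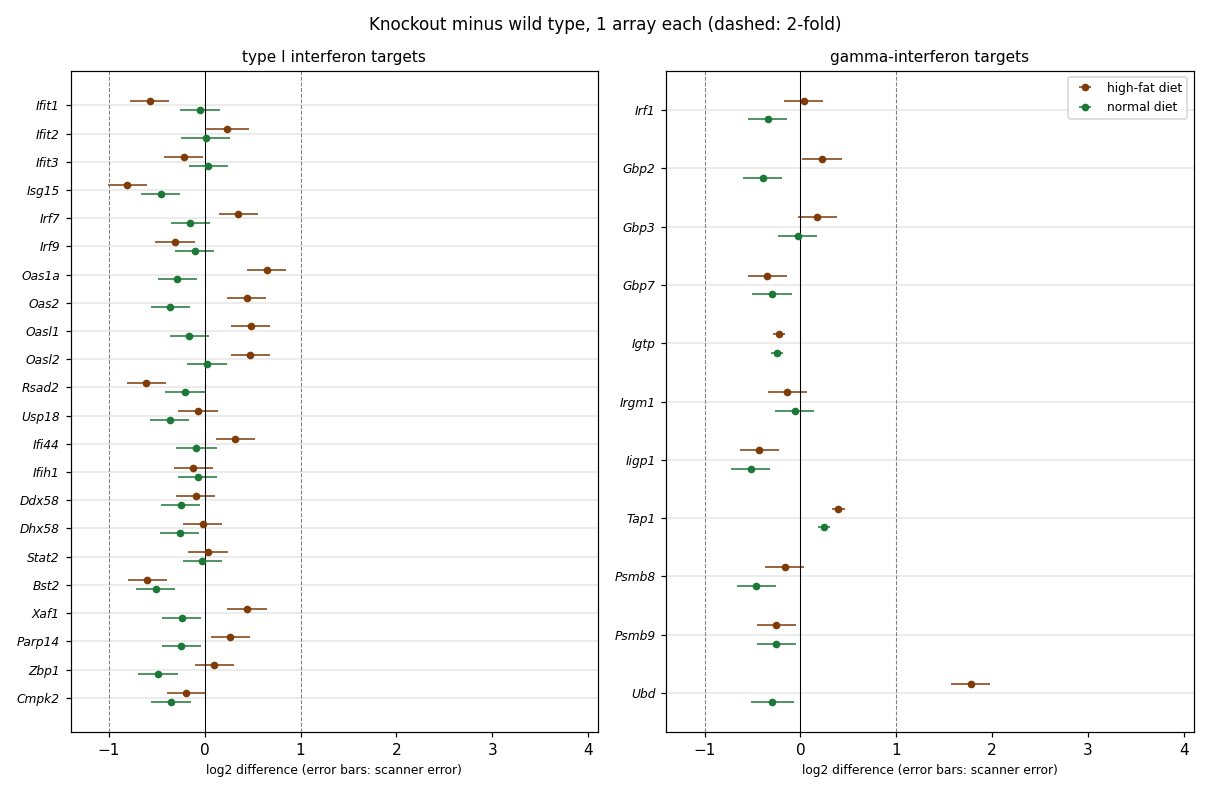
Log2 difference of knockout minus wild type for each member measured on both arrays, on HFD in brown and on ND in green, with scanner error bars and dashed lines at 2-fold. On HFD the points lie on both sides of 0 (16 of 33 above), with Ubd alone beyond 2-fold at 1.78, and on ND 4 of 33 lie above 0.

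On ND, 0 members rose and 0 fell by 2-fold in knockout against wild type, against 1.40% and 2.50% of all genes. The differences were small and mostly below 0, with a median of -0.22 for type I targets, -0.29 for gamma-interferon targets and -0.01 for all genes. A value above 0 was seen for 4 of 33 members, against 48.1% of all genes, although scaling each array to its median in place of its 75th percentile put 11 of 33 above 0 and the median of all genes at 0.13. On the same 2 arrays 9 of 9 measured T and NK cell markers were below 0 (median -0.36), and 1 more, known by its bound, fell. Of the macrophage markers 13 of 14 were below 0 (median -0.14, 1 fell), and the part of both lists in the member differences was not tested. More than 2 scanner errors separated the arrays upward for 1 member, Tap1, and downward for 6, against 5.57% and 7.82% of all genes. The lowest values were those of Iigp1 at -0.52 ± 0.20, Bst2 at -0.51 ± 0.20, Zbp1 at -0.49 ± 0.20, Psmb8 at -0.46 ± 0.20 and Isg15 at -0.46 ± 0.20. Tap1 had the highest, at 0.25 ± 0.07.

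The diet difference in knockout minus that in wild type uses all 4 arrays and has no residual spread, so it is a value with no test. Its log2 median was 0.23 for type I targets and 0.15 for gamma-interferon targets, against -0.04 for all genes. Scaling each array to its median changed these to 0.03 and -0.05, because it moved all genes as well, to -0.24. Ubd had the largest value, 2.07 ± 0.31, followed by Oas1a at 0.93 ± 0.29, Oas2 at 0.80 ± 0.29, Xaf1 at 0.68 ± 0.29 and Oasl1 at 0.64 ± 0.29. At the other end stood Ifit1 at -0.52 ± 0.29, Rsad2 at -0.40 ± 0.29 and Isg15 at -0.35 ± 0.29.

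An additive model of genotype and diet, fitted with limma over 14346 genes, has 1 residual degree of freedom and takes the interaction as error. It called 0 members and 0.00% of all genes for either factor at an adjusted p of 0.05. With the unadjusted p under 0.05 it gave 13 of 33 members for diet, against 9.94% of all genes, and 3 for genotype, against 7.26%. The lowest adjusted p for diet in limma was 0.42, shared by Ifi44, at 1.21 ± 0.16 (SE), and Gbp3, at 0.85 ± 0.13 (SE), both higher on 2 of 2 HFD arrays. For genotype the 3 members were Bst2 at -0.55, Isg15 at -0.63 and Iigp1 at -0.47, each with an adjusted p of 0.64 in limma.

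The upstream pathway was examined through lists of ligands, receptors and signalling genes. Of 15 ligand and receptor genes with a probe, 10 were measured and 0 changed by 2-fold in any of the 4 comparisons. Ifnb1, Ifng, Ifna4 and Ifne, which encode interferons, and the receptor chain gene Ifnlr1 were not well above background on any array. The 10 measured genes included other interferon genes beside receptor genes. The receptor genes Ifnar1, Ifnar2, Ifngr1 and Ifngr2 had diet differences of -0.23, -0.21, 0.35 and 0.60 in knockout and 0.03, -0.06, 0.16 and 0.31 in wild type. Of 25 sensing and JAK-STAT genes, all measured, 0 rose or fell with diet in either genotype, with medians of -0.01 in knockout and -0.03 in wild type. Over all genes 4.22% rose and 1.64% fell with HFD in knockout, and 1.78% and 2.31% in wild type. In knockout against wild type 2.51% rose and 1.59% fell on HFD, and 1.40% and 2.50% on ND. For lists of 10 and 25 genes, counts of 0 are near these shares.

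The signalling genes that changed were 2 feedback inhibitors of the 25 genes, and both fell in knockout against wild type on each diet. Over all genes 1.59% fell on HFD and 2.50% on ND. Socs1, which blocks JAK kinases after interferon, read 76.0 units in knockout on HFD, 349 in wild type on HFD, 79.2 in knockout on ND and 244 in wild type on ND. Socs3, which mainly restrains cytokines of the interleukin-6 family, read 2487 units in knockout on HFD, 5788 in wild type on HFD, 2967 in knockout on ND and 8055 in wild type on ND. For both genes the 2 knockout arrays were below the 2 wild-type arrays, an order that was not counted over all genes. Against wild type, Socs1 fell by 2.20 on the log2 scale on HFD and by 1.63 on ND, and Socs3 fell by 1.22 and by 1.44 in that order.

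Further interferon targets were read from lists beyond the members. Of 32 further type I targets with a probe, 3 rose and 0 fell with HFD in knockout, and 0 changed in wild type. Over all genes 4.22% rose and 1.64% fell in knockout, and 1.78% rose and 2.31% fell in wild type. The 3 further type I targets that rose were Oas1g, Ifi27l2a and Tor3a. Ifi27l2a, a small interferon-induced membrane protein gene, read 6611 units in knockout on HFD, 3420 in wild type on HFD, 2379 in knockout on ND and 2804 in wild type on ND, a log2 difference of 1.47 with HFD in knockout. Oas1g, a paralogue of Oas1a, read 73.4 units in knockout on HFD and was not well above background elsewhere, so it was at least 3.26-fold higher than in knockout on ND and at least 3.10-fold higher than in wild type on HFD. Tor3a rose 2.14-fold in knockout, while a second probe gave a log2 difference of 0.38.

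Of 27 further gamma-interferon targets with a probe, 1 rose with HFD in knockout, 0 changed with HFD in wild type, and 1 fell in knockout against wild type on ND. Over all genes 4.22% rose with HFD in knockout and 2.50% fell in knockout against wild type on ND. A count of 1 is near the background in each case. Gbp8, which was not well above background in knockout on ND, was at least 2.59-fold higher in knockout on HFD. Cxcl10, a chemokine that draws T cells, read 1051 units in knockout on HFD, 1132 in wild type on HFD, 554 in knockout on ND and 1245 in wild type on ND. The knockout ND array alone was low, and Cxcl10 fell by 1.17 on the log2 scale in knockout against wild type on ND. Medians with HFD were 0.26 in knockout and 0.16 in wild type for further type I targets, and 0.12 and -0.10 for further gamma-interferon targets.

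**Figure D5:**
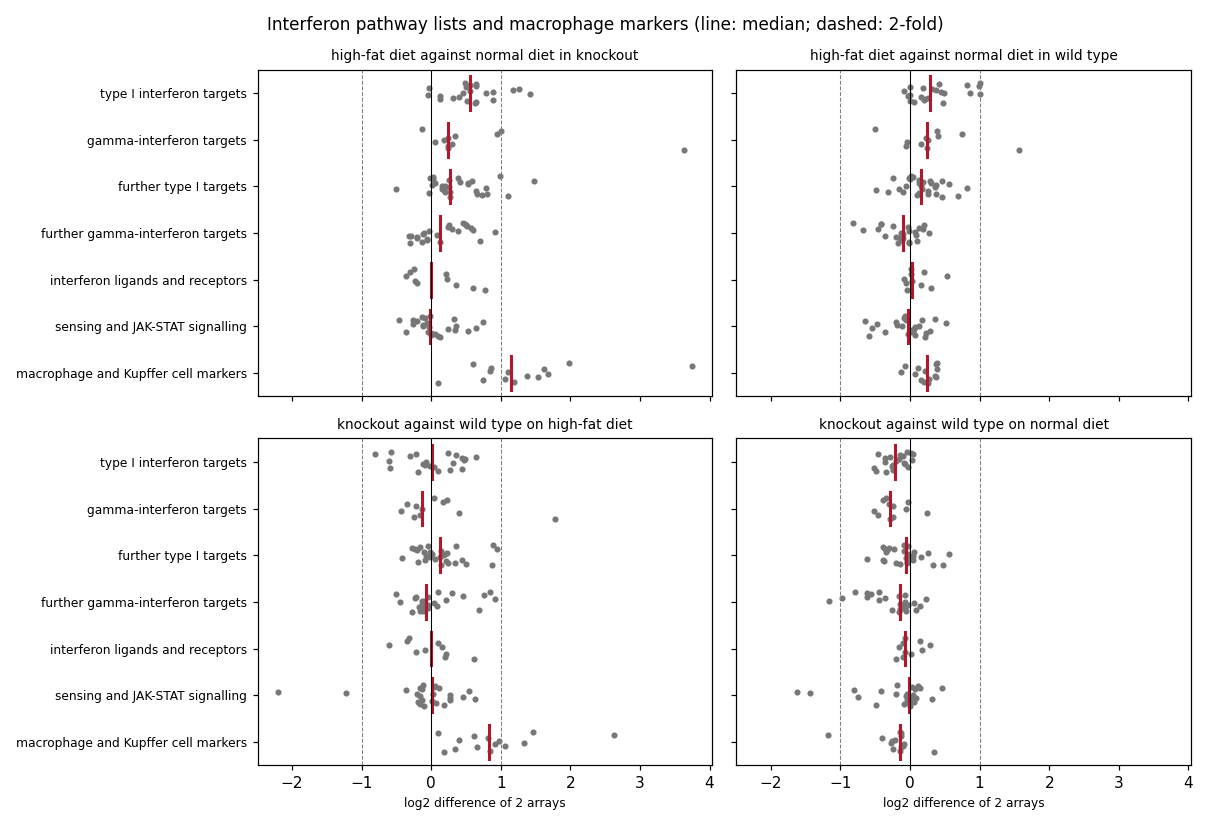
Log2 difference of 2 arrays for every measured gene of 6 interferon lists and of the macrophage and Kupffer cell markers in the 4 comparisons, 1 point per gene, with the median as a red line and dashed lines at 2-fold. With HFD in knockout the median is 0.56 for type I targets and 1.14 for macrophage markers, and in wild type it is 0.29 and 0.24.

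Markers of liver cell types were read on the same arrays. The 14 macrophage and Kupffer cell markers with a probe, of 15 listed, were well above background on all arrays and summed to 104243 units in knockout on HFD, 59515 in wild type on HFD, 41901 in knockout on ND and 49668 in wild type on ND. With HFD 9 of 14 rose in knockout (median 1.14) and 0 in wild type (median 0.24), and 4 rose in knockout against wild type on HFD. Over all genes 4.22%, 1.78% and 2.51% rose in the same 3 comparisons. Marco, a macrophage scavenger receptor gene, had the largest diet difference in knockout, 3.74. In bulk liver RNA, more cells of a type and more RNA per cell cannot be told apart, and the macrophage markers include genes that other myeloid cells express. Hepatocyte markers summed to 3548193 units in knockout on HFD, 4261321 in wild type on HFD, 4224847 in knockout on ND and 4458677 in wild type on ND. Their median log2 difference was -0.26 with HFD in knockout, -0.07 with HFD in wild type and -0.27 in knockout against wild type on HFD. The 10 endothelial markers summed to 44520, 42549, 41036 and 40553 units in the same order of arrays, and 1 rose with HFD in each genotype.

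Lymphocyte, dendritic cell and neutrophil markers were read in the same way. The 14 T and NK cell markers summed to 29713 units in knockout on HFD, 45021 in wild type on HFD, 32807 in knockout on ND and 50152 in wild type on ND, and 0 rose with HFD in either genotype. Their median log2 difference with HFD was -0.03 in knockout and -0.38 in wild type. Of 6 B cell markers 0 rose and 1 fell with HFD in each genotype. Cd8a, Klrb1c and Ncr1 were not well above background on any array. Of 9 dendritic cell markers, 3 rose with HFD in knockout and 0 in wild type, and their sum ranged over 76706 to 91511 units. Of 7 neutrophil markers with a probe, 3 rose and 1 fell with HFD in knockout, and 0 changed in wild type. Over all genes 4.22% rose and 1.64% fell with HFD in knockout, and 1.78% and 2.31% in wild type. In knockout against wild type on HFD, 3 neutrophil and 2 dendritic cell markers rose, and 1 B cell marker rose and 1 fell. On ND 2 neutrophil markers rose and 1 fell, and 1 B cell marker fell. Over all genes 2.51% rose and 1.59% fell on HFD, and 1.40% and 2.50% on ND.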

How the data were processed

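Liver RNA of 4 samples was hybridised to 1-colour (Cy3) Agilent arrays. The deposited scanner files hold spot intensity from Feature Extraction 11.5.1.1, per the file headers, with a background-subtracted processed signal, its error and quality flags. The authors extracted data with GeneSpring GX 7.3, per the series' design text. The deposited value table holds intensity on a linear scale without centring: 99.6% to 99.7% of its values lay within 1% of the processed signal, and its column medians were 89.2 for knockout on HFD, 75.9 for wild type on HFD, 72.4 for knockout on ND and 79.9 for wild type on ND. All 4 arrays shared 1 slide and 1 scan, so no batch could be fitted.

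Control and outlier-flagged spots were left out where a probe had others, spots were averaged as log2, and each array's 75th percentile was subtracted. Accessions named 27508 of 39429 probes through the RefSeq table of GRCm38.p6, used for names and gene order. The file headers name build mm9, from which no coordinates were taken. Each gene took its probe with the highest mean log2 signal.

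A gene was called at 2-fold or more if well above background on both arrays. If it was so on 1 array, the other was set to the higher of its own signal and the lowest signal well above background, and the resulting bound, written "at least", had to reach 2-fold. Only calls are said to rise, fall or change. The count past 2 scanner errors was added after the values were seen. Genes that passed the background flag on 2 or more arrays entered the additive model in limma 3.58.1 (R 4.3.3), with Benjamini-Hochberg adjustment over all of them at 0.05. Other steps used Python 3.11.15, numpy 2.4.6, pandas 2.3.3 and matplotlib 3.10.9, and statistics were tested on simulated data.

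The members and lists were chosen with earlier results of these data known. Per-array values are given for members called in at least 1 of the 4 comparisons. They are also given for Isg15, Bst2, Irf1 and Xaf1, chosen after their values were seen. Of each further list at most 4 called genes per comparison are named. Alternatives were scaling to the median, quantile normalization, another background correction, the mean of all probes, no filter on dim probes, all spots, the value table and a 1.5-fold threshold.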

Additional observations from a re-analysis of the deposited data

How the results depend on the processing

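The 8 counts of called members were recomputed under 8 alternatives, and the 10 medians of the type I and gamma-interferon targets and the 2 counts of the additive model under 7. Of these 148 values 140 stayed within the tolerance (1.5 times for counts, a typical scanner error of 0.20 for medians) and 8 did not. The 140 include counts that were 0 throughout. The tolerance for medians is as wide as several of the medians, so a median could change sign within it. Under median scaling the gamma-interferon median of the difference of diet effects did so, from 0.15 to -0.05. With HFD in wild type, the members that rose numbered 1 under normexp background correction, 5 with the mean of all probes and 7 at 1.5-fold, against 0.827%, 1.69% and 4.45% of all genes. At 1.5-fold, 13 members rose with HFD in knockout, against 9.52% of all genes, and in knockout against wild type on HFD 2 rose and 3 fell, against 7.34% and 4.35%. Without the filter on dim probes 1 member, Oas3, fell in knockout against wild type on ND, against 4.83% of all genes. Scaling to the median made the additive model call 2 of 33 members for diet, both higher, against 217 of 14346 genes higher and 160 lower. For genotype that fit called 0 members, against 117 genes higher and 102 lower. Its prior degrees of freedom were then infinite. Median scaling also shifted the median of all genes by -0.11 and 0.09 in the diet comparisons of knockout and wild type, and by -0.06 and 0.14 in the genotype comparisons on HFD and ND.

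Of 168 differences of the 6 called members, 163 kept their status, called or not called, and 5 lost a call. Most of the 168 were not called in the main processing and so had no call to lose. No called difference changed sign, but 3 uncalled ones did, all in knockout against wild type on ND: Ifi44, at -0.09, came to 0.05 under median scaling and 0.00 under quantile normalization, and Ifit1, at -0.05, to 0.09 under median scaling. Gbp2 in knockout fell short of 2-fold under median scaling (0.90), quantile normalization (0.99) and normexp (0.92), and under normexp so did Ifit1 (0.77) and Ifi44 (0.71) in wild type. Isg15 in wild type passed 2-fold with median scaling (1.08) and the mean of all probes (1.04). Irf1 did so with the mean of all probes (1.01), against -0.51 from its brighter probe, as its other probe was well above background on the wild-type HFD array only. For 8 members with a further probe on all arrays, 27 of 32 differences had the same sign. The largest gap was 0.45 on the log2 scale, for Cmpk2, and Ddx58 had the same sign in 1 of 4 differences.

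The normexp correction used the median spot signal, chosen after seeing the data, because the scanner files give the median and not the planned mean of each spot. No paired analysis was possible because each group has 1 array, and none was left out in turn. The number of arrays limits all values, and dim probes such as Oas3 allow bounds only.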

Other observations

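The second probe for Xaf1, matched to the same accession as the first, was well above background on both knockout arrays only. It read 20.7 units in knockout on HFD, 7.93 in wild type on HFD, 30.5 in knockout on ND and 9.77 in wild type on ND. The brighter probe, with 1139, 839, 617 and 728 units on those arrays, did not split the genotypes in this way.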
